A study of Mus musculus with 16 samples.

Results

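The nuclear-encoded genes of the mitochondrial respiratory chain and ATP synthase were followed on 16 mouse expression arrays of embryonic stem (ES) cell lines and liver. A gene was counted as a member when the symbol of a probe set with a single gene began with Nduf, Uqcr or Atp5, or with Cox and a digit from 4 to 8, or was Sdha, Sdhb, Sdhc or Sdhd. This gave 98 probe sets for 71 genes, of 8252 genes with a probe set of their own. Of the 71 genes, 31 belong to complex I, 4 to complex II, 7 to complex III, 15 to complex IV and 14 to complex V. For a gene with several probe sets, the one brightest on average over the 16 arrays stands for it, a choice that does not use the groups. The symbols also took in Ndufaf1 and Ndufaf4, which are assembly factors of complex I and not subunits, and Cox7a2l, a relative of the Cox7a subunits that takes part in joining complexes III and IV into supercomplexes.

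The study compared cells heterozygous for a targeted gene with +/+ cells. The arrays were of 2 livers labelled Abca1 +/- and 2 +/+ livers, from mice of mixed background (129/SvJ with C57BL6/J). They were also of 3 samples of a Cdk4 +/- ES line and 3 of its +/+ control line E14, both cultured without feeders, and of 3 samples of an Abca1 +/- ES line and 3 of its +/+ parental line ESVJ. The Abca1 +/- and ESVJ lines had been grown on irradiated mouse embryo fibroblasts, freed of these feeders and kept on gelatin for about 2 days before RNA isolation. Each ES genotype was thus 1 line, the age and sex of the liver donors are not given in the labels, and nothing says that samples of 1 line were separate cultures, so p-values measure the spread between these samples. Abca1 encodes a cholesterol efflux transporter and Cdk4 a cyclin-dependent kinase of the G1 phase.

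The respiratory chain passes electrons from NADH (complex I) and succinate (complex II) through ubiquinone to complex III, on to cytochrome c and then to complex IV, which reduces oxygen. Complexes I, III and IV pump protons across the inner mitochondrial membrane, and complex V, the ATP synthase, uses the returning flow to make ATP. Complexes I, III, IV and V also hold subunits encoded by mitochondrial DNA, which are not among the genes described here. Hepatocytes are rich in mitochondria and oxidise fatty acids and amino acids, whereas mouse ES cells are known for a high rate of glycolysis. Several subunits exist as tissue isoforms, among them Cox6a2, Cox7a1 and Cox8b of heart and skeletal muscle and Cox6b2 and Cox8c of testis.

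Values are array signals scaled to a trimmed mean of 500 on each array, and differences are on the log2(signal + 32) scale, tested with limma over all probe sets that reached a mean signal of 100, with Benjamini-Hochberg adjustment and a threshold of 0.05. Summed hepatocyte markers were 153408 to 208082 on the liver arrays and 251 to 504 on the ES arrays, and summed ES cell markers were 491 to 772 on the liver arrays and 32659 to 62388 on the ES arrays. The Cdk4 probe set with the higher signal read 3448, 3854 and 3731 in Cdk4 +/- cells, against 5822, 5498 and 5827 in E14 cells, a difference of -0.63 (adjusted p = 0.00436). The Abca1 probe set with the higher signal read 94.0, 115 and 123 in Abca1 +/- ES cells, against 178, 144 and 102 in ESVJ cells, a difference of -0.26 (adjusted p = 1). In liver the same probe set went against the label, with 699 and 555 in the livers labelled Abca1 +/-, against 327 and 301 in +/+ livers, a difference of 0.92 (adjusted p = 0.191), while another Abca1 probe set, with 41.5 and 161 against 295 and 140, differed by -1.0 (adjusted p = 0.366). Whether these probe sets lie in the deleted parts is not given in the sources used here. Replicate 1 of the livers labelled Abca1 +/- stood apart in RNA quality: its ratio of 3' to 5' probe set signal was 4.1 for Gapdh and 8.23 for actin, against 0.815 to 1.13 and 1.78 to 2.14 on the other liver arrays and 0.801 to 1.19 and 1.04 to 1.4 on the ES arrays.

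Promoter sequences are shown for the member of each complex that was raised furthest in +/+ liver over +/+ ES cells, among the 58 members held by RefSeq's promoter table (mouse build GRCm38.p6), and for Cox7a2l, which was lowered furthest. Each is the 150 bases before the gene's start, written 5' to 3' on the gene's strand. Capitals mark matches to the ETS core CCGGAAG, in either orientation, the letters bound by GABP, a transcription factor known for activating nuclear genes of the respiratory chain.
Ndufa3, complex I, chr7:3617223-3617372 on the plus strand: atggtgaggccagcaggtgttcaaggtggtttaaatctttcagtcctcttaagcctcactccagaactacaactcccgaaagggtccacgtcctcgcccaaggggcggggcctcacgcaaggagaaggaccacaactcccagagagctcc
Sdhd, complex II, chr9:50603850-50603999 on the minus strand: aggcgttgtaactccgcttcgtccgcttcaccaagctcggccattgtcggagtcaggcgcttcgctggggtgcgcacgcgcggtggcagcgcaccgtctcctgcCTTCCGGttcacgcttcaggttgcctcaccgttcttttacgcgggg
Uqcrh, complex III, chr4:116075071-116075220 on the minus strand: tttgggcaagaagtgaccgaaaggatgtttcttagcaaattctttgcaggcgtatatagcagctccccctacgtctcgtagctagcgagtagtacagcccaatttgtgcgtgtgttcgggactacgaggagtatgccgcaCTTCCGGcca
Cox7b, complex IV, chrX:106015550-106015699 on the plus strand: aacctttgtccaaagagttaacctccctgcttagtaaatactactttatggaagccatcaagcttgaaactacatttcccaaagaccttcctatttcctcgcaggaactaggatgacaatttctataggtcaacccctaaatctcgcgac
Atp5e, complex V, chr2:174464102-174464251 on the minus strand: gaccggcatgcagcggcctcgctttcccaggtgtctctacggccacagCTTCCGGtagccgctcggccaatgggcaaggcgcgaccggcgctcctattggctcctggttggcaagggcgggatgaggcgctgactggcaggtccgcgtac
Cox7a2l, complex IV by its symbol, chr17:83514334-83514483 on the minus strand: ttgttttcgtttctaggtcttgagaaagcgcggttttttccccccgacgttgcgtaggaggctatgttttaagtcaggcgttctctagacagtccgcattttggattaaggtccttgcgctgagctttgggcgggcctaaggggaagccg

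The ETS core stood 46 bases before the start of Sdhd, 10 bases before that of Uqcrh and 102 bases before that of Atp5e, and was not in the 150 bases of the other genes shown. Over windows of 250 bases before to 50 after the start, on both strands, it was found in 16 of the 63 promoters of members (25.4%) and in 8.86% of the 32851 promoters of the table. The core GCATGCGC of NRF1, another known activator of respiratory chain genes, was in 10 of the 63 (15.9%) and in 2.71% of all promoters. The letters AAGATGG of YY1 were in 8 of the 63 (12.7%) and in 6.34% of all, and the half-site AAGGTCA of the oestrogen-related receptors in 5 (7.94%) and in 4.72% of all. Searches for these 4 motifs describe letters in a window and do not show binding.

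In +/+ liver most subunit genes of each of the 5 complexes were expressed at higher levels than in +/+ ES cells. Of the 65 members that reached the signal filter, 55 were higher in liver and 2 were lower, against 26.9% higher and 48.9% lower among the 7802 probe sets tested (35.2% and 42.1% after quantile normalisation, 35.1% and 41.4% after scaling to the median). The median difference of these members was 1.24, or 2.37-fold, where the median of all probe sets was -0.43. The ε subunit of ATP synthase (Atp5e), the complex I subunit Ndufb9 and the hinge protein of complex III (Uqcrh) led the list. Some genes of the large core subunits, Atp5a1, Ndufv1, Ndufs1 and Uqcrc1, did not pass the test.

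**Figure D1:**
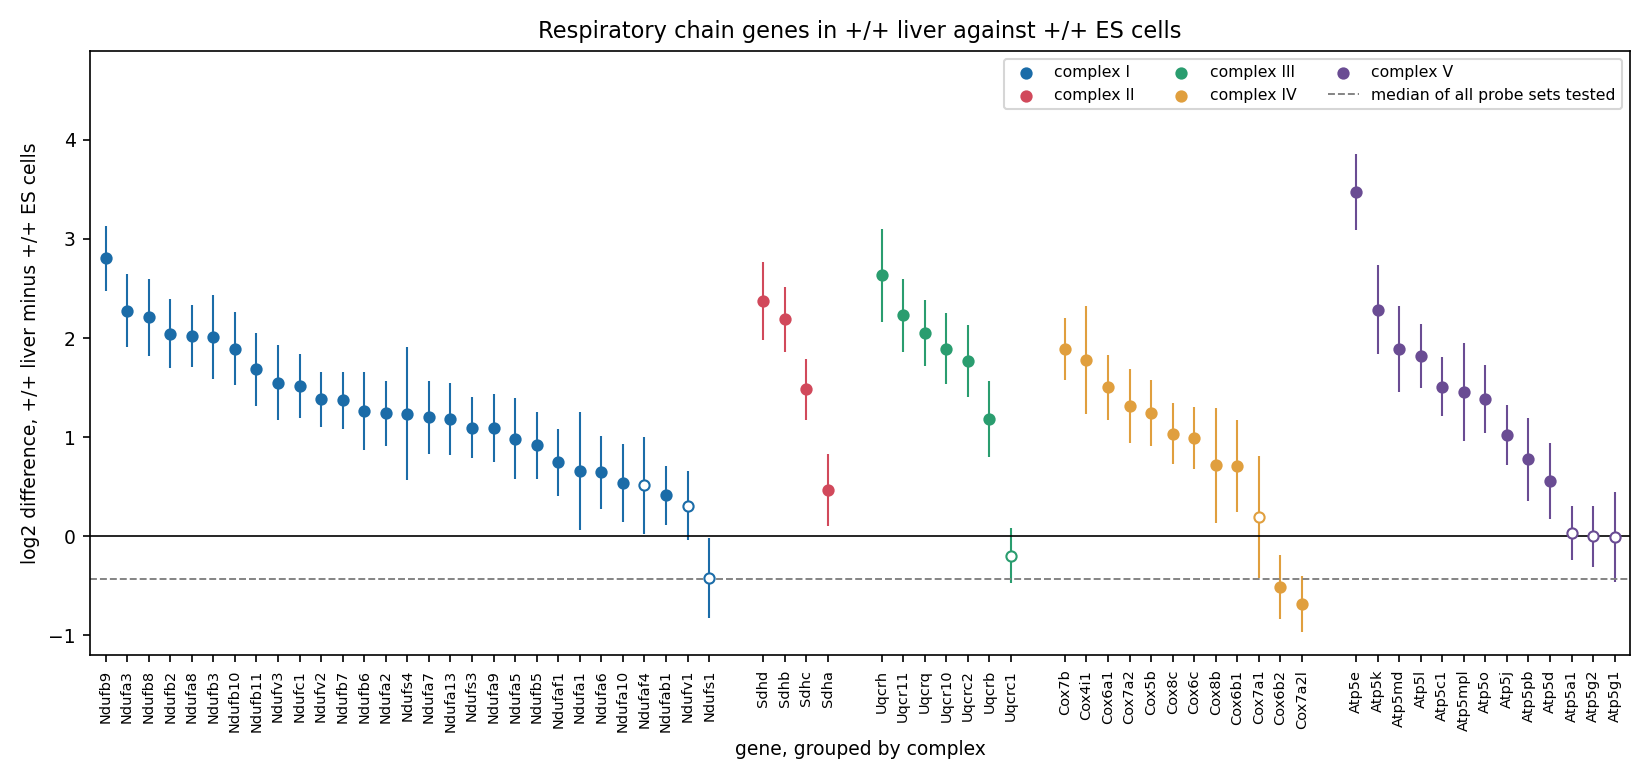
Difference in log2(signal + 32) of each member that reached the signal filter, +/+ liver (n = 2) minus +/+ ES cells (n = 6), by complex. Points are estimates, bars are 95% intervals, open circles did not pass an adjusted p of 0.05, and the dashed line is the median of all probe sets; of the 65 members 55 passed above 0 and 2 below, Atp5e the highest at 3.47 and Cox7a2l the lowest at -0.68.

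Members did not all have the same chance to be seen. Ndufa12, Ndufc2, Cox5a, Cox6a2, Cox8a and Atp5j2 had mean signals below 100 over the arrays of this comparison and were left out of its tests. The nearest of them to the filter were Cox6a2 at 92.8 and Ndufc2 at 92.6, and the nearest members above it were Ndufs4 at 118.5 and Cox7a1 at 142.5. Since a gene that is high in liver can pass the filter through liver alone, the 65 are not the whole family. Ndufs4, which was called higher, passed in this way, so the filter favoured that direction. It read 207 and 239 in +/+ liver, against a median of 79.4 on the +/+ ES arrays. The chosen probe sets of 18 members, among them Atp5e, Ndufa3, Sdhb, Cox4i1, Cox6a1, Cox6b1, Cox6b2 and Atp5md, carry a name suffix by which the manufacturer marks sets that may detect related transcripts or departed from its design rules, and without such probe sets 40 members were called higher in liver. Liver is also a mixture of cells. Summed blood markers were 17324 to 22105 on the liver arrays and 375 to 685 on the ES arrays, summed fibroblast markers were 9939 to 11435 and 2357 to 3581, and their part in the subunit signals was not tested. In such bulk samples, whether more cells of a type or more RNA per cell lay behind a higher signal cannot be told apart.

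In complex I, 26 of the 29 members tested were higher in +/+ liver and none was lower, with a median of 1.24. Ndufb9, an accessory subunit of the membrane arm, read 11595 and 16213 in +/+ liver, against a lowest value of 1754, a median of 1844 and a highest value of 2262 on the 6 +/+ ES arrays. Both livers lay far above every ES array, and the difference was 2.81 (SE 0.15, 7.0-fold, adjusted p = 2e-09). Ndufa3, a small subunit of the membrane arm, read 10659.8 and 9411 in +/+ liver, against a lowest value of 1734, a median of 1952 and a highest value of 2629.5 on the +/+ ES arrays, a difference of 2.28 (4.84-fold). Ndufb8, also of the membrane arm, read 13251 and 18021, against a lowest value of 2755, a median of 3157 and a highest value of 4522 on the +/+ ES arrays, and differed by 2.21 (SE 0.18). In each of these genes the lower liver exceeded the highest ES array. Other membrane-arm subunits moved likewise, with 2.04 for Ndufb2, 2.01 for Ndufb3 and 1.89 for Ndufb10, as did Ndufa8, a subunit on the intermembrane side, with 2.03.

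The arm that takes up electrons from NADH was less uniform. Ndufv1, which carries the flavin where NADH is oxidised, read 6920.1 and 5836 in +/+ liver and 3886 to 5789 on the +/+ ES arrays, and its difference of 0.31 did not pass (adjusted p = 0.0955). Ndufs1, the largest iron-sulfur subunit, read 1971 and 1116 in +/+ liver and 1588 to 2682 on the +/+ ES arrays, with a difference of -0.42 (adjusted p = 0.053). Their iron-sulfur partner Ndufv2 was higher in liver by 1.38 (adjusted p = 3.6e-07), and the accessory subunit Ndufv3 by 1.55 (adjusted p = 2.71e-06). Of the assembly factors, Ndufaf1 was higher by 0.75 (adjusted p = 0.000764), and Ndufaf4, with 0.51, did not pass (adjusted p = 0.0555). Ndufab1, which is also the acyl carrier protein of mitochondrial fatty acid synthesis, was higher by 0.41 (adjusted p = 0.0145), but not under quantile normalisation (-0.03, adjusted p = 0.846).

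All 4 genes of complex II were higher in +/+ liver, by unequal amounts. Sdhd, a membrane anchor that helps to bind ubiquinone, read 8779 and 13384 in +/+ liver, against a lowest value of 1689, a median of 2064 and a highest value of 2523 on the +/+ ES arrays, a difference of 2.38 (SE 0.18, 5.19-fold, adjusted p = 6.4e-08). Sdhb, the iron-sulfur subunit, read 11199.9 and 11925, against a lowest value of 1891, a median of 2463 and a highest value of 3208, a difference of 2.19 (4.56-fold, adjusted p = 2.05e-08). Neither gene overlapped between the tissues. Sdhc, the other anchor, was higher by 1.48 (adjusted p = 6.05e-07). Sdha, the flavoprotein that oxidises succinate, read 567 and 465 in +/+ liver, against 311 to 432 on the +/+ ES arrays, and its difference of 0.47 passed with less room (adjusted p = 0.022). The 95% interval of the difference was 0.10 to 0.83 for Sdha and 1.86 to 2.51 for Sdhb.

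Complex III had the highest median of the 5 complexes, 1.89, with 6 of its 7 genes higher in +/+ liver. Uqcrh, the acidic hinge protein that faces cytochrome c, read 11409 and 15130.0 in +/+ liver, against a lowest value of 1181, a median of 2093 and a highest value of 2978 on the +/+ ES arrays, a difference of 2.63 (SE 0.22, 6.2-fold, adjusted p = 1.2e-07). The small subunits Uqcr11, Uqcrq and Uqcr10 differed by 2.23, 2.05 and 1.89. Of the core proteins, which face the matrix, Uqcrc2 was higher by 1.77 (adjusted p = 4.63e-07), while Uqcrc1 read 4829 and 4578 in +/+ liver and 4313 to 6253 on the +/+ ES arrays, with a difference of -0.20 (adjusted p = 0.181). The 95% intervals of these differences, 1.41 to 2.13 for Uqcrc2 and -0.47 to 0.08 for Uqcrc1, did not overlap. Cyc1, the haem subunit of this complex, whose symbol lies outside the prefixes, was higher by 1.01 (adjusted p = 8.45e-06).

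Complex IV was the most mixed, with 9 genes higher, 2 lower and 1 not passed of 12, and a median of 1.01. Cox7b, a small membrane subunit, read 9898 and 11263 in +/+ liver, against a lowest value of 1978, a median of 2840.1 and a highest value of 3877 on the +/+ ES arrays, a difference of 1.89 (3.71-fold, adjusted p = 6.72e-08). Cox4i1, the regulatory subunit that binds nucleotides, differed by 1.78 (adjusted p = 2.54e-05), although another of its probe sets differed by 0.59 (adjusted p = 0.0658). Cox6a1 and Cox7a2, the isoforms found in liver and most other tissues, were higher by 1.5 and 1.31. The zinc-binding Cox5b was higher by 1.24, and Cox6c by 0.99, with another Cox6c probe set at 3.30.

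The isoforms known from other tissues went several ways in +/+ liver. Cox7a2l was the gene lowered furthest, with 1268 and 1459 in +/+ liver, against a lowest value of 1744, a median of 2264 and a highest value of 2755 on the +/+ ES arrays, a difference of -0.68 (SE 0.13, adjusted p = 0.000356). Cox6b2, the testis form of the subunit that faces the intermembrane space, read 677 and 655, against a lowest value of 724, a median of 987 and a highest value of 1237, a difference of -0.51 (SE 0.15, adjusted p = 0.00706). That call was lost under quantile normalisation (-0.08, adjusted p = 0.645), median scaling (-0.18, adjusted p = 0.284), the mean of its probe sets (-0.13, adjusted p = 0.509) and against ESVJ cells alone (-0.27, adjusted p = 0.156). In both genes every liver lay below every ES array, as 44.6% of all probe sets did, and 54 members lay above without overlap, as 24.9% of all probe sets did. The ubiquitous partner Cox6b1 read 393 and 382, against a lowest value of 163, a median of 198 and a highest value of 371, and was higher by 0.71 (adjusted p = 0.00896). The testis form Cox8c and the muscle form Cox8b were higher by 1.03 and 0.72, and the muscle form Cox7a1, with 0.19, did not pass (adjusted p = 0.549). Summed skeletal and cardiac muscle markers were 5218 to 7217 in the E14 and Cdk4 +/- cells and 1128 to 1339 in the ESVJ and Abca1 +/- cells, and their part in the values of the muscle isoforms was not tested.

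In complex V, 10 of 13 genes were higher in +/+ liver and none was lower, with a median of 1.39. Atp5e, the ε subunit at the foot of the central stalk, read 8404 and 13704 in +/+ liver, against a lowest value of 777, a median of 922 and a highest value of 1237 on the +/+ ES arrays. Both livers were several times above the highest ES array, and the difference of 3.47 (SE 0.18, 11.1-fold, adjusted p = 1.21e-09) was the largest of all members. The other stalk genes, Atp5c1 (γ) and Atp5d (δ), were higher by 1.51 and 0.56. Subunits of the membrane part where dimers form were also higher, Atp5k (e) by 2.29, Atp5l (g) by 1.82 and Atp5md by 1.89. The peripheral stalk genes Atp5o, Atp5j and Atp5pb were higher by 1.39, 1.02 and 0.78.

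Atp5a1 of the catalytic head and Atp5g1 and Atp5g2 of the rotor ring gave no call. The β subunit gene of the head and the c subunit gene Atp5g3 were not among the members. Atp5a1, the α subunit, read 8779.9 and 8555 in +/+ liver, against a lowest value of 7172, a median of 8641 and a highest value of 9691 on the +/+ ES arrays, and its difference of 0.03 had a 95% interval of -0.24 to 0.31 (adjusted p = 0.819). Atp5g1 and Atp5g2, which both encode the c subunit of the ring, differed by -0.01 (-0.47 to 0.44) and 0.00 (-0.31 to 0.30). The intervals of these 3 genes lay below the estimate for Atp5e. After scaling to the median, Atp5g2 was called higher in liver, by 0.33 (adjusted p = 0.0451).

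The ES range behind these values held a difference between lines that is described below, and the members' medians show it array by array. Relative to each member's mean over the 16 arrays, the median of 65 members was 0.28 and 0.71 in the livers labelled Abca1 +/-, against 0.96 and 1.10 in +/+ livers. It was -0.42, -0.33 and -0.41 in Cdk4 +/- cells, against -0.37, -0.35 and -0.38 in E14 cells, and -0.04, -0.14 and -0.11 in Abca1 +/- ES cells, against -0.22, 0.06 and -0.08 in ESVJ cells. The 4 liver arrays were the highest, and the 6 arrays of lines grown without feeders were the lowest. As a share of the total array signal the members made up 2.41% and 3.37% in the livers labelled Abca1 +/-, against 4.16% and 4.6% in +/+ livers, and 1.74% to 2.26% on the 12 ES arrays.

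**Figure D2:**
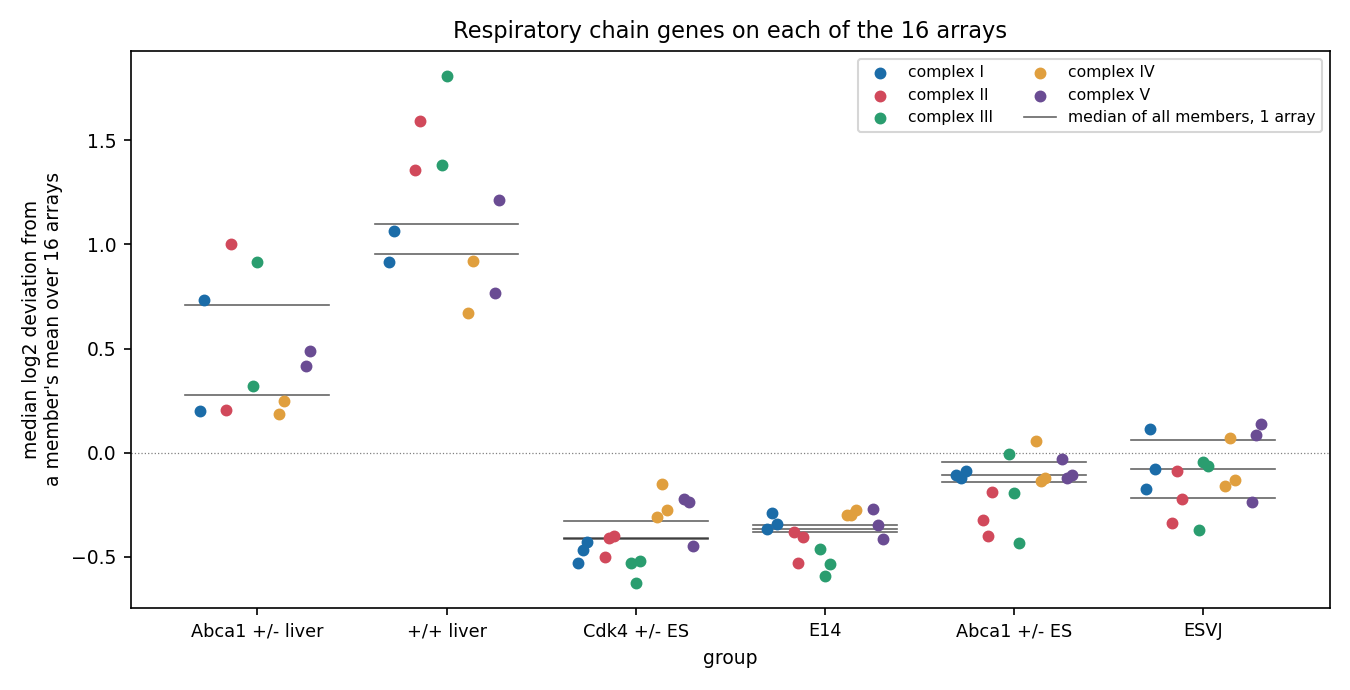
Median over 65 members of log2(signal + 32) relative to each member's mean over all arrays, by group. Each point is the median of 1 complex on 1 array, and each line is the median of all members on 1 array. The lines of the +/+ livers lie at 0.96 and 1.10, the livers labelled Abca1 +/- at 0.28 and 0.71, and those of the Cdk4 +/- and E14 arrays between -0.42 and -0.33.

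The call of 50 of the 57 members that passed was kept whichever of the 8 arrays was left out. It was lost in at least 1 such fit for Ndufa1, Ndufa10, Ndufab1, Sdha, Cox6b1, Cox8b and Atp5d.

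Liver was also compared with ES cells between the livers labelled Abca1 +/- and Abca1 +/- ES cells, whose signals the comparison above did not use. The +/+ livers and ESVJ cells were in the same fit, and so shared in its signal filter and its estimate of the spread. With only the 2 groups compared in the fit, 27 of the 34 calls were kept. Here 32 of 67 members tested were higher in liver, 33 did not pass and 2 were lower, against 24.4% higher and 40.5% lower among all probe sets, with a median of 0.59 (all probe sets -0.27). Of the 55 members higher in +/+ liver 31 were among them (56.4%), and these made up 96.9% of the 32. The overlap of calls over all probe sets was not counted. Ndufa3 read 8590.3 and 7401 in the livers labelled Abca1 +/-, against 2400.2, 1900.3 and 2227 in Abca1 +/- ES cells, a difference of 1.87 (adjusted p = 3.7e-06). Atp5e read 2725 and 4632, against 996, 1306 and 1025, a difference of 1.66 (adjusted p = 0.00011). The livers lay above the ES arrays without overlap in both genes, as in 38 of the 67 members and 2280 of the 7883 probe sets tested.

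By complex, 14 of 30 members of complex I, 4 of 4 of complex II, 5 of 7 of complex III, 3 of 13 of complex IV and 6 of 13 of complex V were higher in the livers labelled Abca1 +/- than in Abca1 +/- ES cells. The differences of Sdha, Sdhb, Sdhc and Sdhd were 1.03, 1.06, 0.70 and 0.88. In complex I, Ndufa13 (1.39), Ndufb9 (1.37) and Ndufb2 (1.21) followed Ndufa3. In complex III, Uqcrq (1.39), Uqcrc2 (1.26), Uqcrh (1.19) and Uqcrb (1.18) were the furthest raised, in complex IV Cox6a1 (1.21) and Cox8c (0.80), and in complex V, after Atp5e, Atp5md (1.59), Atp5k (1.15) and Atp5d (1.08). Cox7a2l was again lower, with 1359.6 and 1649 against 2063, 2018 and 1934 and a difference of -0.41 (adjusted p = 0.0483). That call was lost under quantile normalisation, median scaling, no signal filter or no trend. It was also lost with only the groups compared in the fit and without any 1 of the 3 Abca1 +/- ES arrays. Cox6b2, with -0.25, did not pass (adjusted p = 0.253). Atp5a1 had 0.02 (adjusted p = 0.934) and Uqcrc1 -0.26 (adjusted p = 0.335).

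The muscle isoform Cox6a2 was called higher in this comparison, but its livers did not read alike, with 589 and 47.4 against 22.2, 37.8 and 47.5 in Abca1 +/- ES cells, so that the groups overlapped. Cox6a2 reached the signal filter of 100 only through liver, so the filter favoured that direction. Its means were 318 in livers labelled Abca1 +/- and 228.5 in +/+ livers, against 35.9 in Abca1 +/- ES and 39.1 in ESVJ cells. Its high value came from the liver with the raised 3' to 5' ratios, replicate 1. Summed skeletal and cardiac muscle markers were 2735 in that liver and 572 in replicate 2, against 1563 and 1702 in +/+ livers, and their part in the Cox6a2 signal was not tested. Cox7a1, the other muscle isoform, read 99.9 and 35.7, against 135, 136 and 146, and was lower, with a difference of -0.85 (adjusted p = 0.0304). Without replicate 1 of the livers labelled Abca1 +/-, which leaves 1 liver in that group, the median of the members was 0.84. Without replicate 2 it was 0.43. The medians of all probe sets in these fits are not given here. Without any 1 of the 3 Abca1 +/- ES arrays no member was called lower.

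To place the subunits among other mitochondrial genes, 8 further lists were read in +/+ liver against +/+ ES cells. Over all probe sets 26.9% were higher and 48.9% lower. All 16 genes tested of fatty acid oxidation were higher, with a median of 2.79, among them the thiolase Acaa2 by 4.78, the hydroxyacyl-CoA dehydrogenase Hadh by 3.23, the electron transfer flavoprotein subunit Etfb by 3.44 and the isomerase Eci2 by 3.08. Acaa2 read 27896 and 34662 in +/+ liver, against 1145, 1230.1 and 762 in E14 cells and 1156, 1089.8 and 1303 in ESVJ cells. Of 15 genes of the TCA cycle and pyruvate dehydrogenase, 6 were higher and 4 lower, including fumarase (Fh1) with 1.54, the succinyl-CoA ligase subunit Suclg1 with 1.64, citrate synthase (Cs) with -1.54 and the pyruvate dehydrogenase subunit Pdha1 with -1.2. The medians of these lists were 2.79 and 0.01, and that of the subunit genes was 1.24.

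Genes that assemble the chain were partly higher in +/+ liver, and most of those that regulate it were lower. Of 11 assembly genes tested, 5 were higher and 1 lower with a median of 0.41, the higher ones including the complex III factors Uqcc1 (2.19) and Uqcc2 (1.26) and the complex IV factor Cox16 (1.72). Of 10 genes of mitochondrial DNA maintenance and nuclear regulation, 1 was higher and 7 lower with a median of -0.90. Over all probe sets 26.9% were higher and 48.9% lower, with a median of -0.43. The differences were -3.17 for the coactivator Pprc1, -1.5 for the mitochondrial RNA polymerase Polrmt and -1.3 for the DNA polymerase Polg, all lower in liver. Gabpa, the DNA-binding subunit of GABP, read 268 and 167 in +/+ liver, against 841, 823 and 692 in E14 cells and 1536, 1173 and 888 in ESVJ cells, a difference of -2.02 (adjusted p = 1.66e-06). Esrra, an oestrogen-related receptor, was the 1 gene of this list that was higher, by 0.68.

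Among 18 carriers, porins and import genes, 3 were higher and 9 lower with a median of -0.37, beside 48.9% lower and a median of -0.43 over all probe sets. They included the ADP/ATP carrier Slc25a4 with -3.2 and the import pore Tomm40 with -3.57. Among 4 other donors to ubiquinone or uncouplers tested, the sulfide quinone oxidoreductase Sqor was higher by 5.89 and the glycerol phosphate dehydrogenase Gpd2 lower with -1.41. Of 6 genes that remove superoxide or peroxide, 2 were higher, Txnrd2 by 2.05 and Prdx3 by 1.34, and 1 was lower, Gpx1 with -0.44. Of the cytochrome c list, Cycs, with 0.31, did not pass (adjusted p = 0.115).

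**Figure D3:**
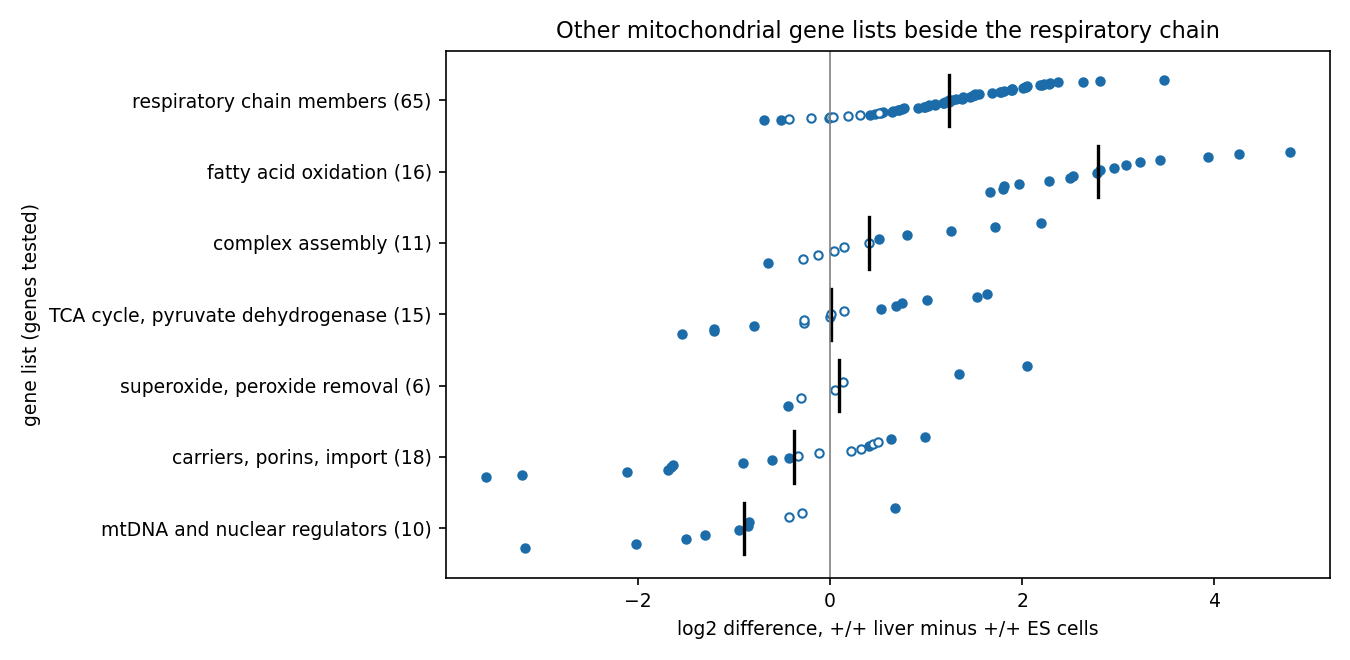
Difference in log2(signal + 32) of each respiratory chain member and of each gene of 6 other mitochondrial lists, +/+ liver minus +/+ ES cells. Each circle is 1 gene, open where an adjusted p of 0.05 was not passed, the vertical black bar is the list's median, and the number in parentheses is the number of genes tested; the median is 2.79 for fatty acid oxidation genes, 1.24 for the respiratory chain members and -0.90 for the regulators.

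Among the +/+ ES lines, subunit genes were more often lower than higher in E14 than in ESVJ cells. Of 64 members tested, 23 were lower and 3 higher, against 22.8% lower and 19.8% higher among the 7349 probe sets tested, with a median of -0.26 (all probe sets -0.09). The line, its culture without or on feeders and its RNA kit differ together between these groups and cannot be told apart. Summed ES cell markers were 32659 to 44518 in the E14 and Cdk4 +/- cells and 52879 to 62388 in the ESVJ and Abca1 +/- cells, and their part in the subunit signals was not tested. Summed fibroblast markers, which would mark remaining feeders, were 2635 to 2770 in E14 cells, against 2585 to 2819 in ESVJ cells. Of the 5 such genes tested, Fbln2 (-0.82), Col6a2 (-0.67) and Col1a2 (-0.60) were lower in E14 cells, Col1a1 was higher (1.22) and Col6a1 did not pass (0.18), with a median of -0.60, and their part in the subunit signals was not tested.

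Without replicate 2 of ESVJ, every call made in complexes II and III was lost. Ndufv3, an accessory subunit of the NADH-oxidising arm, read 554, 456 and 424 in E14 cells, against 959, 1400.4 and 991 in ESVJ cells, and the groups did not overlap. Its difference of -1.16 (SE 0.15, adjusted p = 2.55e-05) was the largest of the members. Ndufb3, of the membrane arm, read 949.6, 876 and 888, against 1826, 2186 and 1231, a difference of -0.89 (adjusted p = 0.00165). Ndufc1, another membrane subunit, read 1624, 1512 and 1277, against 2505, 2785 and 2409, a difference of -0.79 (adjusted p = 6.86e-05). In both genes each E14 array lay below each ESVJ array. Without overlap, 27 of the 64 members lay below and 4 above, as did 2122 below and 1701 above of the 7349 probe sets tested. In complex I 9 of 28 genes were lower, the others being Ndufb5, Ndufb10, Ndufs1, Ndufa9, Ndufv2 and Ndufaf1, from -0.62 for Ndufb5 to -0.49 for Ndufaf1.

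In complex II, Sdhc (-0.37, adjusted p = 0.0214) and Sdhb (-0.34, adjusted p = 0.0425) were lower in E14 cells, and Sdhd (-0.23) and Sdha (0.24) did not pass. In complex III, Uqcrh (-0.63), Uqcr11 (-0.54) and Uqcr10 (-0.46) were lower. Uqcrc1 went the other way, with 6077, 6017 and 6253 in E14 cells, against 5179, 4787 and 4313 in ESVJ cells, a difference of 0.36 (adjusted p = 0.0383). In complex V, Atp5l (-0.68), Atp5o (-0.56), Atp5j (-0.44), Atp5e (-0.41) and Atp5c1 (-0.38) were lower, and none of the 13 was higher.

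Complex IV held isoforms that differed in opposite directions. Cox7a2 read 4078, 3704 and 2642 in E14 cells, against 4901, 6482 and 5818 in ESVJ cells, and was lower with a difference of -0.73 (adjusted p = 0.00446). Its relative Cox7a2l read 2626, 2755 and 2579, against 1744, 1949 and 1778, and was higher by 0.54 (SE 0.10, adjusted p = 0.000608). Neither gene overlapped between the lines, where 2122 of the 7349 probe sets tested lay below and 1701 above without overlap. Cox6b1 read 168, 163 and 189.6, against 206, 371 and 318, and was lower with -0.65 (adjusted p = 0.0181). The testis form Cox6b2 read 1134, 1237 and 1051, against 724, 924 and 797, and was higher by 0.47 (adjusted p = 0.00753). Another Cox6b2 probe set differed by 0.21 (limma adjusted p = 0.581), and the call was lost with the mean of the gene's probe sets. Cox7b (-0.61) and Cox8c (-0.31) were also lower, and the muscle forms Cox7a1 (-0.55, adjusted p = 0.0848) and Cox8b (-0.50, adjusted p = 0.124) did not pass.

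Other mitochondrial lists were read against the 22.8% of all probe sets that were lower in E14 than in ESVJ cells. Of the 3 genes of the cytochrome c list 2 were lower, the testis cytochrome c gene Cyct (-1.56) and Cyc1 (-0.50). Of 11 assembly genes, 5 were lower, among them Uqcc1 (-0.91) and Foxred1 (-0.68), and of 19 carriers and import genes 7 were lower and 1 higher. The ADP/ATP carrier isoforms were opposed: Slc25a4 read 5115, 5376 and 5161 in E14 cells, against 3319, 3011 and 3146 in ESVJ cells (0.72), and Slc25a5 read 1114, 1199 and 1394, against 2968, 2856 and 3138 (-1.26). Of 15 fatty acid oxidation genes 4 were lower and 1 higher, and of 15 TCA cycle genes 3 were lower, shares near that of all probe sets.

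Cdk4 +/- and Abca1 +/- ES cells differ by line, culture and targeted gene, and their arrays are not those of E14 and ESVJ cells. Both comparisons come from the same fit of all 4 ES groups and share its estimate of the spread. With only the 2 groups compared in the fit, 23 of the 25 calls between Cdk4 +/- and Abca1 +/- ES cells were kept. Of the 64 members, 24 were lower in Cdk4 +/- cells and 1 was higher, against 21.1% lower and 19.4% higher among all probe sets, with a median of -0.27 (all probe sets -0.09). The genes lower in both comparisons numbered 15, which is 65.2% of the 23 and 62.5% of the 24, and none was higher in both. How far calls of all probe sets were shared between both comparisons was not counted. Ndufv3 read 501, 536 and 528 in Cdk4 +/- cells, against 1207, 1031 and 1115 in Abca1 +/- ES cells, a difference of -1.05 (adjusted p = 6.64e-05). Uqcr11 read 1312, 1813 and 1312, against 2825, 3445 and 2411, a difference of -0.96 (adjusted p = 0.000434). The groups did not overlap in either gene. Without overlap, 31 of the 64 members lay below and 3 above, as did 2073 below and 1743 above of the 7349 probe sets tested.

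Ndufb10 (-0.99), Ndufb3 (-0.75), Ndufa6 (-0.73), Ndufc1 (-0.67), Uqcrq (-0.59), Uqcr10 (-0.53), Cox7b (-0.66) and Cox5b (-0.33) were among the other genes lower in Cdk4 +/- than in Abca1 +/- ES cells. Of complex II, Sdhc was lower (-0.37), and of complex V, Atp5e (-0.65), Atp5l (-0.47), Atp5o (-0.40), Atp5c1 (-0.37) and Atp5a1 (-0.32). The genes higher in E14 than in ESVJ cells did not pass here, with 0.08 for Cox7a2l (adjusted p = 0.562), 0.12 for Cox6b2 (adjusted p = 0.476) and -0.17 for Uqcrc1 (adjusted p = 0.338). The gene higher in Cdk4 +/- cells was Atp5md, a small subunit linked to ATP synthase dimers, with 6396, 7737 and 7421, against 6464, 4060.0 and 3433 in Abca1 +/- ES cells, a difference of 0.67 (adjusted p = 0.0202) with overlapping values.

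**Figure D4:**
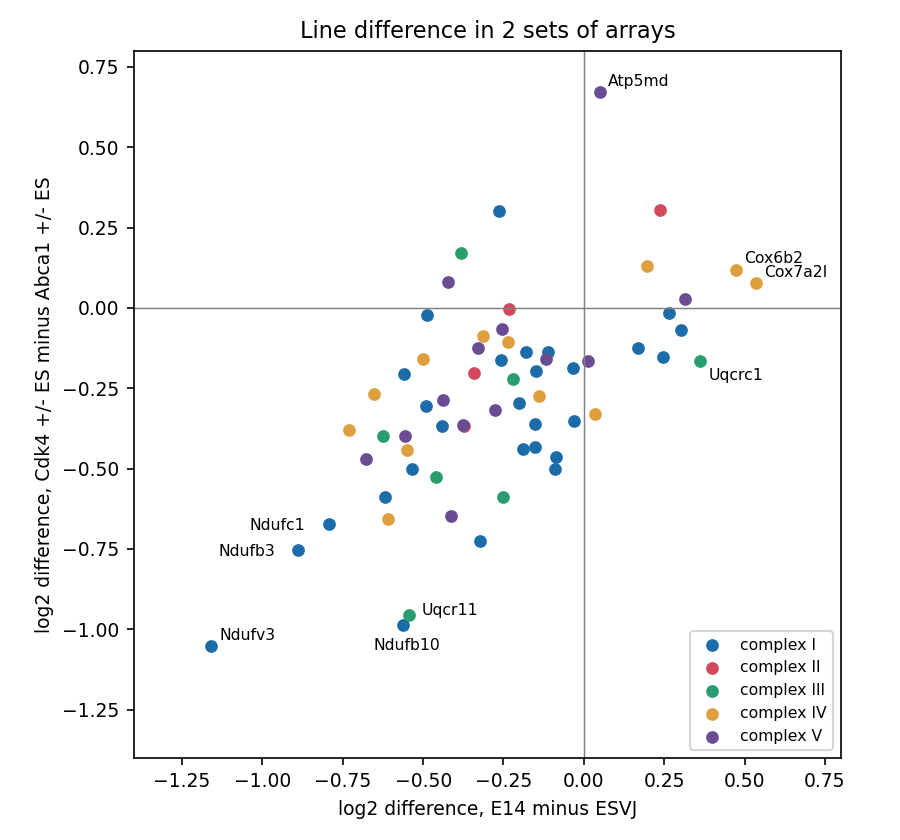
Difference in log2(signal + 32) of each of 64 members in E14 minus ESVJ cells (x axis) and in Cdk4 +/- minus Abca1 +/- ES cells (y axis); the axes share no arrays. Each point is 1 gene, coloured by complex. Ndufv3 lies lowest on both axes, at -1.16 and -1.05, while Cox7a2l lies at 0.54 and 0.08.

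Of the 26 calls between E14 and ESVJ cells, 15 were kept whichever array was left out, and of the 25 calls between Cdk4 +/- and Abca1 +/- ES cells, 14. Between E14 and ESVJ cells the calls of Ndufb10, Sdhb, Sdhc, Uqcrh, Uqcr10, Uqcr11, Uqcrc1, Cox6b1, Cox8c and Atp5c1 were lost without replicate 2 of ESVJ, and that of Atp5e without replicate 3 of ESVJ or replicate 2 of E14. Between Cdk4 +/- and Abca1 +/- ES cells those of Ndufb6, Ndufs3, Ndufv1, Ndufv2, Sdhc, Cox5b, Atp5a1, Atp5c1, Atp5l, Atp5md and Atp5o were lost in at least 1 such fit. Without replicate 2 of ESVJ, 14 of 64 members were lower in E14, a share near the 18% of all probe sets. In a fit of all 16 arrays 11 of 65 were lower in E14, beside 14.7% of all probe sets, and 12 of 65 in Cdk4 +/- cells, beside 13.6%, again near the share of all. Over the 65 members and the group means of the ES cells, the lowest mean was in Cdk4 +/- cells for 31 members, in E14 cells for 26, in ESVJ cells for 5 and in Abca1 +/- ES cells for 3. The lowest group was not counted over all probe sets, so these numbers have no share to stand beside.

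The Cdk4 +/- line was compared with E14, its +/+ control, to ask what the loss of 1 Cdk4 allele changed. No subunit gene passed the test: limma called 0 of 64 members, against 2.59% higher and 2.33% lower among all probe sets. At an unadjusted p under 0.05 there were 13 of the 64 members, a share near the 20.8% of all probe sets. Of these 13 members 12 were lower, but all probe sets at that p were not counted by direction. The median of the members was -0.03 (all probe sets 0.02). Cox5b, the zinc-binding subunit of complex IV, came nearest, with 3705, 3579.5 and 3709.5 in Cdk4 +/- cells, against 5247, 4404 and 5121 in E14 cells. Its groups did not overlap, and its difference was -0.42 (95% interval -0.67 to -0.17, adjusted p = 0.0566).

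Ndufb6, of the membrane arm of complex I, read 2638, 3018 and 2607 in Cdk4 +/- cells, against 4065, 3358 and 3957 in E14 cells, a difference of -0.46 (adjusted p = 0.0613). Uqcrc1 read 4535, 4450.0 and 4658, against 6077, 6017 and 6253, a difference of -0.43 (adjusted p = 0.0804), and Cox7a2l read 2149, 2071 and 2132, against 2626, 2755 and 2579, a difference of -0.32 (adjusted p = 0.0796). In these genes all Cdk4 +/- arrays lay below all E14 arrays, as 11.9% of all probe sets did. Ndufa6 (-0.51), Ndufb10 (-0.49), Uqcr11 (-0.46), Uqcrq (-0.36) and Ndufb7 (-0.31) had adjusted p-values from 0.0929 to 0.142, and the assembly factor Ndufaf1, with 0.40, had an adjusted p of 0.093. Without replicate 3 of E14, Uqcr11 passed (-0.61, adjusted p = 0.0471), and without replicate 2 of Cdk4 +/-, Ndufb10 passed (-0.67, adjusted p = 0.0347). Outside the family, the regulators Yy1 (-0.96) and Pprc1 (-0.80) were lower in Cdk4 +/- cells, and Gabpb1 (0.61), Uqcc1 (1.08) and the fatty acid transfer genes Cpt1a (0.84) and Slc25a20 (0.62) were higher.

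The Abca1 +/- ES line and its parent ESVJ gave no call among the subunit genes. Limma called 0 of 64 members, against 0.0136% higher and 0.0136% lower among all probe sets, and 0 members had an unadjusted p under 0.05, where 3.28% of all probe sets did. The median of the members was -0.02 (all probe sets 0.00), and medians by complex lay between -0.07 and -0.01. Ndufa10 came nearest to the threshold, with a difference of 0.35 (95% interval -0.02 to 0.71, adjusted p = 1). The next were Atp5j (-0.22), Atp5k (0.42), Ndufaf4 (-0.30), Uqcrb (-0.27), Atp5md (-0.32), Atp5g1 (-0.24), Ndufb8 (-0.20), Cox7a2l (0.14) and Ndufv2 (-0.13), each with an adjusted p of 1. Atp5e read 996, 1306 and 1025 in Abca1 +/- ES cells, against 996, 1047 and 1237 in ESVJ cells, with overlapping values, and its difference of 0.02 had a 95% interval of -0.26 to 0.29. For Sdhb the interval was -0.37 to 0.17, for Uqcrh -0.64 to 0.38 and for Cox7b -0.31 to 0.32.

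In the livers labelled Abca1 +/-, most subunit genes had lower signals than in +/+ livers, but no difference passed the test with 2 livers a group. Of 67 members tested 55 had a negative difference, and the median was -0.56, where that of all probe sets was 0.11. Limma called 0 of 67 members, against 0.014% higher and 0% lower among the 7160 probe sets tested. At an unadjusted p under 0.05 there were 23 members, all lower, where 18.4% of all probe sets stood out in either direction. In 43 members both livers labelled Abca1 +/- lay below both +/+ livers, where 21.4% of all probe sets did, and in 3 they lay above, where 30.3% did.

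Ndufb8 read 3999 and 6529 in the livers labelled Abca1 +/-, against 13251 and 18021 in +/+ livers, a difference of -1.59 (95% interval -2.41 to -0.77, adjusted p = 0.113). Atp5e read 2725 and 4632, against 8404 and 13704, a difference of -1.59 (95% interval -2.47 to -0.71, adjusted p = 0.117). Sdhd read 2605 and 5597, against 8779 and 13384, a difference of -1.5 (adjusted p = 0.139). The groups did not overlap in any of these genes, although the livers of each group also differed between themselves. Uqcr10 (-1.31), Ndufa8 (-1.24), Atp5c1 (-1.32), Ndufb6 (-1.48), Ndufv2 (-1.2), Ndufb9 (-1.31) and Ndufb10 (-1.28) had adjusted p-values from 0.146 to 0.179.

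The medians by complex were -0.46 for complex I, -0.84 for complex II, -0.56 for complex III, -0.39 for complex IV and -0.58 for complex V. Sdha was an exception within complex II, with 613 and 867 in the livers labelled Abca1 +/-, against 567 and 465 in +/+ livers, a difference of 0.48 (adjusted p = 0.488). Atp5a1, with 10203 and 9432 against 8779.9 and 8555, likewise lay above in both livers, with a difference of 0.18 (adjusted p = 0.818). Uqcrc1 read 3454 and 5261, against 4829 and 4578, and overlapped. Of other lists, 13 of 16 fatty acid oxidation genes (median -0.36) and 9 of 11 assembly genes (median -0.58) had negative differences, beside 3088 of the 7160 probe sets. So had 12 of 19 carriers and import genes (-0.11), 4 of 6 superoxide or peroxide genes (-0.07) and 2 of 2 cytochrome c genes (-0.35). Positive differences prevailed in 6 of 8 regulators (0.30), 3 of 4 other donors to ubiquinone or uncouplers (0.30) and 8 of 15 TCA cycle genes (0.06). No gene of these lists passed.

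The liver with the raised 3' to 5' ratios, replicate 1, had the lower signal of the pair labelled Abca1 +/- for 47 of the 67 members. Taken alone against both +/+ livers, it lay below them for 51 members and above for 9, with a median of -0.54 relative to their mean. Replicate 2 lay below both +/+ livers for 50 members and above both for 11, with a median of -0.46. Its 3' to 5' ratios were 1.13 for Gapdh and 2.14 for actin, against 0.815 and 0.919 for Gapdh and 1.78 and 1.81 for actin in +/+ livers. How many of all probe sets lay below or above for a single liver was not counted. Without replicate 1, which leaves 1 liver in that group, limma called no member. Without replicate 2, where the lone liver with the raised 3' to 5' ratios is assumed to vary like the +/+ livers, it called 23 of 67 lower and 1 higher, beside 9.6% lower and 13.2% higher among all probe sets. The higher one was Cox6a2 with 1.26 (adjusted p = 0.0207). A fit of all 16 arrays called 31 of 65 lower, beside 8.95% lower and 16.2% higher among all probe sets. Most of those arrays were of ES cells, so these calls rest mainly on the spread of ES lines and not on that of livers.

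**Figure D5:**
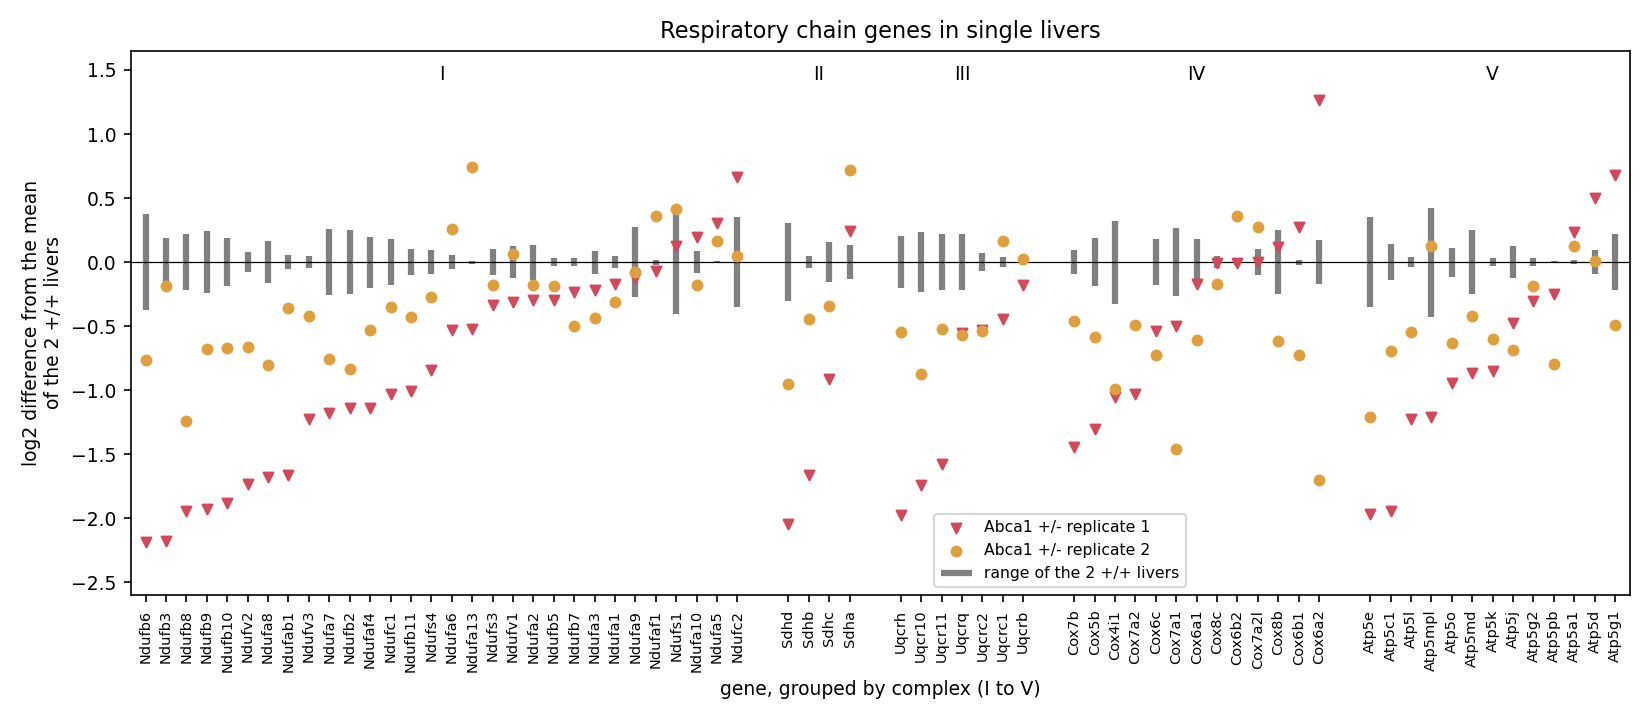
Signal of members in each liver labelled Abca1 +/-, given as log2(signal + 32) relative to the mean of the 2 +/+ livers, by complex; grey bars span the 2 +/+ livers. Replicate 1 lies below the bar for 51 of 67 members and above it for 9, and replicate 2 below for 50 and above for 11, with medians of -0.54 and -0.46. The same counts over all probe sets were not made.

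Whether the Abca1 +/- label went with the same difference in liver as in ES cells was tested by the difference between both effects. Atp5e and Ndufa8 passed, 2 of 67 members and both lower, against 0.368% lower and 2.02% higher among the 7883 probe sets tested, and the median of the members was -0.40 (all probe sets 0.12). For Atp5e the effect in liver minus that in ES cells was -1.6 (SE 0.37, adjusted p = 0.0456). Ndufa8 read 1457 and 2701 in the livers labelled Abca1 +/-, against 4225 and 5326 in +/+ livers, and 1294, 1317 and 1298 in Abca1 +/- ES cells, against 1139, 1154 and 1247 in ESVJ cells, and the difference of effects was -1.38 (SE 0.33, adjusted p = 0.0495). The next, which did not pass, were Ndufb8 (-1.39), Uqcr10 (-1.37), Cox4i1 (-1.13), Sdhd (-1.38), Ndufb2 (-0.97), Atp5c1 (-1.31), Ndufb9 (-1.34) and Atp5k (-1.15), with adjusted p-values from 0.0586 to 0.115. Without replicate 1 of the livers labelled Abca1 +/-, or without any 1 of the 6 ES arrays, neither passed, and without replicate 2 of those livers, which leaves the liver with the raised 3' to 5' ratios, 29 of 67 members were lower, beside 9.94% lower and 15.5% higher among all probe sets.

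Where a gene had several probe sets, they did not always read alike. For Ndufa3 the difference between +/+ liver and +/+ ES cells was 2.28 with the chosen probe set and 1.08 with another. For Atp5d the chosen probe set differed by 0.32 between E14 and ESVJ cells (adjusted p = 0.247), while another was lower in E14, with -1.46 (adjusted p = 0.00282). For Ndufb2 another probe set was lower in Cdk4 +/- than in E14 cells, with -0.56 (adjusted p = 0.0363), where the chosen one had -0.30 (adjusted p = 0.155).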

How the data were processed

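Total RNA of 16 samples was hybridised to Affymetrix U74Av2 arrays of 12488 probe sets, and the authors deposited 1 signal (intensity) per probe set and array, made with MAS5 software at its default settings, per the labels' protocols. The trimmed mean of each deposited array lay between 1500.8 and 1501.6. No detection calls were used. Here each array was scaled to a 2% trimmed mean of 500, 32 was added and log2 taken. Array control probe sets were removed, as were probe sets with a mean signal under 100 over the arrays of a fit. The test was that of limma 3.58.1 (R 4.3.3; lmFit and eBayes with an intensity trend), with 4 ES groups in the ES fit, 2 in the liver fit, +/+ livers and both +/+ lines in the tissue fit, and ESVJ, Abca1 +/- ES and all livers in the fit for the difference of effects. P-values were Benjamini-Hochberg adjusted over all probe sets, and the code was tested on simulated data with added log2 changes of 0.5, 1, 2 and -1. The liver fit found 0% of each, so its lack of calls cannot show that genes did not differ. For the difference of effects 4% were found at 1, 50% at 2 and 0% at 0.5 and -1. At 1, +/+ liver against +/+ ES cells found 70% and E14 against ESVJ cells 74%. Array number limits the precision.

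Of the probe sets 10855 had 1 gene, 396 several and 1237 none in the platform annotation. The 7 probe sets of several genes that met the prefixes were left out. All 71 members matched RefSeq's gene table. Named genes were, per complex, up to 4 past the threshold with the largest difference in each direction, the 10 with the smallest p where fewer than 5 passed, tissue isoforms, complex II and assembly factors. Other named genes were chosen after their values were seen. The comparisons of livers labelled Abca1 +/- with Abca1 +/- ES cells and of Cdk4 +/- with Abca1 +/- ES cells were added after seeing the data. They were drawn from the fit for the difference of effects and from the ES fit, in that order. The members, lists and tests were chosen with earlier results of these data known. Python 3.11.15, pandas 2.3.3 and matplotlib 3.10.9 were used. Alternatives were quantile normalisation, median scaling, other pseudocounts and filters, no trend, all 16 arrays in 1 fit, the mean of a gene's probe sets, no probe sets marked for cross-hybridisation, and each array left out.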

Additional observations from a re-analysis of the deposited data

Results flagged for a closer look

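Atp5e stood out because the difference between livers labelled Abca1 +/- and +/+ livers was not that between Abca1 +/- ES and ESVJ cells, by a test of the difference of effects in limma of -1.6 (adjusted p = 0.0456). The effects themselves were -1.59 in liver and 0.02 in ES cells. Without replicate 1 of the livers labelled Abca1 +/- the difference was -1.22 (adjusted p = 0.0913).

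Ndufa8 stood out by the same test, with -1.38 (adjusted p = 0.0495), from effects of -1.24 in liver and 0.14 in ES cells. Without replicate 1 of those livers the difference was -0.95 (adjusted p = 0.069). The part of RNA quality in either value was not tested beyond leaving out that liver.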

How the results depend on the processing

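Under quantile normalisation the members lower in +/+ liver numbered 4 and the median difference was 1.01; under median scaling these were 1 and 1.6, and with the mean of a gene's probe sets or without probe sets marked for cross-hybridisation 1 was lower. The median of all probe sets in this comparison moved from -0.43 to -0.13 under quantile normalisation and to -0.10 under median scaling, so that members stood 1.68, 1.14 and 1.70 above it. In E14 against ESVJ cells 5 members were higher under quantile normalisation, and 11 lower in a fit of all 16 arrays, which gave 12 lower in Cdk4 +/- against Abca1 +/- ES cells. That last comparison had 0 higher without cross-hybridising probe sets. In Cdk4 +/- against E14 cells 2 were lower under quantile normalisation and 1 with a filter of 200 or without cross-hybridising probe sets. For the livers labelled Abca1 +/- against +/+ livers the median was -0.77 under median scaling, and 31 were lower with all 16 arrays, most of them of ES cells. Against Abca1 +/- ES cells, these livers had 5 lower under quantile normalisation, 1 under median scaling, no filter, a filter of 200 or no trend, and 0 with only the groups compared. For the difference of effects, 0 were lower under quantile normalisation, median scaling, no filter, no trend or the mean of probe sets, 1 with a pseudocount of 1 or without cross-hybridising probe sets, and 12 with all 16 arrays, and the median was -0.65 under median scaling.

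With each array left out in turn, 2 to 3 members were lower in +/+ liver, 14 to 24 in E14 against ESVJ cells and 0 to 1 in Cdk4 +/- against E14 cells. In livers labelled Abca1 +/- against +/+ livers, 0 to 1 were higher and 0 to 23 lower; for the difference of effects, 0 to 1 were higher and 0 to 29 lower with medians of -0.57 to -0.37. Against Abca1 +/- ES cells these livers had 0 to 6 lower and medians of 0.43 to 0.84, and Cdk4 +/- against Abca1 +/- ES cells had 0 to 1 higher. Direction turned for Ndufab1 in +/+ liver against +/+ ES cells (-0.03 under quantile normalisation), Ndufb5 in the livers labelled Abca1 +/- against Abca1 +/- ES cells (-0.11 under quantile normalisation), Atp5g2, which otherwise did not pass, in +/+ liver (0.33 under median scaling), Ndufaf1 in E14 against ESVJ cells (0.14 with the mean of probe sets) and Cox6a2 without replicate 2 of the livers labelled Abca1 +/- (1.26 against +/+ livers and 1.35 for the difference of effects, with ranges of -1.7 to 1.26 and -0.31 to 1.35 over the arrays left out). Of the other single-gene values 3514 kept their direction and side of the threshold, 78 passed it and 150 lost it. The causes were not tested. No paired analysis was possible because the labels give no replicate numbers shared between groups. Signal over background is unknown, since no detection calls were used, and 6 members had mean signals too low to test.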
